A study of Mus musculus with 9 samples.

Results

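Transcripts of 8 trophoblast marker genes were followed in mouse ESCs after knockdown of Dppa2 or Dppa4. The genes were chosen by name as known markers (Cdx2, Elf5, Gata3, Hand1, Krt7, Krt8, Krt18, and Tead4), and each matched 1 of the 25965 genes in the deposited table. The study describes its knockdowns in ESCs that carry MERVL::tdTomato and Zscan4c::eGFP reporters. The cells were E14 ESCs of the 129/Ola background, grown without feeders in serum and LIF. They received control, Dppa2, or Dppa4 siRNA at the start and again at 48 h, and polyadenylated RNA was collected at 96 h (4 d), with 3 libraries (A, B, and C) per treatment and 9 in all. The study asked whether lowering Dppa2 or Dppa4 changes transcription in ESCs. The siRNAs were pools of several duplexes against each target, and the knockdowns were partial. Dppa2 had log2 values of 6.94 to 7.26 in the control libraries and 3.36 to 3.86 with its siRNA, and Dppa4 had 7.02 to 7.11 and 6.09 to 6.16. In these RNA values Dppa2 siRNA thus left Dppa2 at 0.0893 of its control level (95% interval 0.0714 to 0.112) and Dppa4 siRNA left Dppa4 at 0.524 (0.464 to 0.592). The study reports a stronger loss of Dppa4, both as mRNA by qRT-PCR and as protein by Western blotting. It also reports that Dppa4 siRNA lowered most of the Dppa2 protein while Dppa2 mRNA stayed the same. The study calls the libraries of a treatment biological replicates. The labels do not say whether they were separate cultures, and the p-values measure the spread between these libraries.

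Trophoblast is the outer lineage of the blastocyst that goes on to form the placenta, and ESCs, which resemble the inner cells, normally make little of it. Tead4 is the DNA-binding partner of the Hippo coactivators Yap1 and Wwtr1 and switches on Cdx2 and Gata3 in outer cells. Cdx2 and Gata3 are transcription factors of early trophoblast. Elf5 maintains trophoblast stem cells, and its promoter is known to be methylated in ESCs. Hand1 promotes trophoblast giant cells and is also made in early mesoderm. Krt7, Krt8, and Krt18 are keratins of simple epithelia, in which the type II keratins Krt7 and Krt8 pair with the type I keratin Krt18 in filaments.

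None of the 7 genes that could be tested passed the test of a difference between treatments, and the remaining gene, Elf5, was too low to test. Tead4, Krt8, and Krt18 were well expressed in every library, Cdx2, Gata3, Hand1, and Krt7 rested on 8 to 88 reads per library, and Elf5 had 0 to 3. The widest differences from control were 0.38 on the log2 scale for Krt8 with Dppa2 siRNA and -0.35 for Krt7 with Dppa4 siRNA, and both were within the spread between replicates. For Cdx2, Gata3, Krt7, and Krt18 the control libraries alone differed from each other by more than 1 log2 unit.

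All 8 genes are protein-coding, and coordinates are those of the GRCm38 assembly in the deposited table. Cdx2 (ENSMUSG00000029646) lies on chromosome 5 from 147300805 to 147307270, Tead4 (ENSMUSG00000030353) on chromosome 6 from 128224288 to 128300823, and Hand1 (ENSMUSG00000037335) on chromosome 11 from 57828705 to 57832818. Elf5 (ENSMUSG00000027186) and Gata3 (ENSMUSG00000015619) are both on chromosome 2, from 103411688 to 103450989 and from 9857078 to 9890034. The keratin genes share chromosome 15. Krt7 (ENSMUSG00000023039) runs from 101411043 to 101430313, Krt8 (ENSMUSG00000049382) from 101996711 to 102004342, and Krt18 (ENSMUSG00000023043) from 102028216 to 102032026. Krt8 and Krt18 are transcribed away from each other, with 23874 bases between their starts. Of the 50-base stretches of the Krt8 transcripts 27.2% also occur in the annotated pseudogene Krt8-ps, so part of the Krt8 reads is uncertain between them. For the other members at most 0.719% of stretches were shared with another gene.

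RefSeq promoter windows (GRCm38.p6) were at hand for 6 of the 8 genes. Krt8 and Krt18 varied together between libraries, but this was not particular to the pair. By root mean square difference of centred log2 profiles, 3849 of 14601 tested genes were closer to Krt8 than Krt18 was (0.24). Tead4 (0.22) was among them. For Krt18, 974 genes were closer than Krt8. The sequences upstream of Krt8 and Krt18 are shown for this joint variation, and that of the downstream Elf5 start because Elf5 gave almost no reads. Each runs 5′ to 3′ on the strand of its gene and stops before the first annotated exon base, and capitals mark CpG dinucleotides. The Krt8 stretch is chr15:102004483-102004592 (minus strand), that of Krt18 is chr15:102027966-102028179 (plus strand), and that of Elf5 is chr2:103423818-103424061 (plus strand).
Krt8: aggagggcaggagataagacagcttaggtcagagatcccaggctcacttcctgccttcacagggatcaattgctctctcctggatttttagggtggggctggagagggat
Krt18: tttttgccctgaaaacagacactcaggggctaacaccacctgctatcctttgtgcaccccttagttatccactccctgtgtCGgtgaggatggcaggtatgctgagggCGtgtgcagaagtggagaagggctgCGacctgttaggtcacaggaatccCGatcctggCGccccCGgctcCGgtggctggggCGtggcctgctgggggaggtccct
Elf5: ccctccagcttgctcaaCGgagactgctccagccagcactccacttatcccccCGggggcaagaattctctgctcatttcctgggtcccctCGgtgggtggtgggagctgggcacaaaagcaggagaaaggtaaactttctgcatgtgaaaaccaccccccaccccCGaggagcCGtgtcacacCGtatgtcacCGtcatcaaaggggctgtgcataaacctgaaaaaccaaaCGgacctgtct
Over the whole 250 bases before the RefSeq start, Krt8 held 3 CpGs and Krt18 12, against a median of 6 over 32851 windows. The downstream Elf5 window held 8, the upstream one 2, Cdx2 13, Krt7 16, and Gata3 19. The most CpG-rich window was that of Gata3, with more CpGs than 80.3% of all windows. The core of the motif bound by Tead factors (GGAATG, or CATTCC on the other strand) was in 1 of the 7 windows of the members, the upstream window of Elf5, and in 12.6% of all windows. That Elf5 window begins inside an annotated exon of the gene, with 0 bases before it. In the Krt7 window 82 bases precede the first annotated exon base within it.

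Levels of different genes were compared per kilobase of merged annotated exons, as the mean log2 value over the 9 libraries. Krt18 (3.33) and Krt8 (3.10) were the highest. Krt18 was above Krt8 in 6 of 9 libraries, with a mean difference of 0.23 ± 0.26 (SD, n = 9). The mean was smaller than its SD, and the difference was not tested. Tead4 (1.14) was below Krt8 and above Gata3 in all 9 libraries, by 1.96 ± 0.23 (SD, n = 9) and 1.96 ± 0.32 (SD, n = 9). Gata3 (-0.82), Cdx2 (-1.09), Hand1 (-1.65), and Krt7 (-2.60) followed. Gata3 was above Cdx2 in 8 of 9 libraries, by 0.27 ± 0.30 (SD, n = 9), and Cdx2 above Hand1 in 7 of 9, by 0.56 ± 0.57 (SD, n = 9), so each mean difference was smaller than its SD. Hand1 was above Krt7 in 8 of 9 libraries, by 0.95 ± 0.64 (SD, n = 9). Krt7 has 7049 annotated exon bases once its transcripts are merged, against 4094 in the longest of them, and merging lowers its value per kilobase. For comparison with the cell type on the label, the pluripotency factor Pou5f1 had log2 values of 10.10 to 10.41 in the 9 libraries, before any correction for length.

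Tead4, at the top of this hierarchy, had log2 values of 2.89, 2.74, and 2.92 in control libraries A, B, and C. They were 3.11, 2.89, and 3.12 with Dppa2 siRNA and 3.08, 3.05, and 3.06 with Dppa4 siRNA. All 3 Dppa4 siRNA libraries lay above all 3 control libraries, whereas 1 Dppa2 siRNA library (B) lay within the control range. Tead4 rested on 194 reads or more in every library, and its replicates were the closest of the 7 tested members (residual SD 0.09). limma gave a log2 difference of 0.21 with Dppa4 siRNA (SE 0.11, 95% interval -0.04 to 0.47, adjusted p = 0.376) and of 0.19 with Dppa2 siRNA (SE 0.11, interval -0.07 to 0.44, adjusted p = 0.516). Tead4 was the only tested member whose groups did not overlap in a comparison with control, 1 of 7 with Dppa4 siRNA and 0 of 7 with Dppa2 siRNA. Among the 14601 tested genes 23.9% had groups that did not overlap with Dppa4 siRNA, and 13.7% lay above control as Tead4 did. With Dppa2 siRNA 17.8% did not overlap.

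Cdx2 and Gata3, which act downstream of Tead4 in the embryo, showed wide control replicates. Cdx2 had log2 values of -0.02, -0.56, and 0.75 in control libraries A, B, and C, 0.04, 0.41, and -0.42 with Dppa2 siRNA, and 0.19, 0.33, and 0.09 with Dppa4 siRNA. Control library C was the highest of the 9 and control library B the lowest, so that every knockdown library lay inside the control range. These values rested on 14 to 43 reads per library, with 115 reads over the control group (exact 95% interval 94.9 to 138), 72 with Dppa2 siRNA (56.3 to 90.7), and 99 with Dppa4 siRNA (80.5 to 121). Read intervals cover counting error only and are not corrected for the depth of the libraries. limma gave differences of -0.04 (interval -0.82 to 0.73, adjusted p = 0.988) with Dppa2 siRNA and 0.15 (interval -0.62 to 0.92, adjusted p = 0.897) with Dppa4 siRNA. On the linear scale the Cdx2 intervals run from 0.568 to 1.66 and from 0.649 to 1.89 times the control level, and larger changes than these are outside them.

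Gata3 had log2 values of 1.26, 0.54, and 1.83 in control libraries A, B, and C. The values were 1.37, 0.94, and 1.13 with Dppa2 siRNA and 1.10, 1.17, and 1.19 with Dppa4 siRNA, from 44 to 88 reads per library. As for Cdx2, control library C was the highest and control library B the lowest of all, and the knockdown groups lay between them. The differences from limma were -0.07 (interval -0.72 to 0.59, adjusted p = 0.978) and -0.06 (interval -0.72 to 0.60, adjusted p = 0.959).

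Elf5 was not tested, because its values were below the filter of log2 -2 in all libraries. It had 1, 3, and 0 reads in control libraries A, B, and C, and 1, 0, and 1 with Dppa2 siRNA. With Dppa4 siRNA it had 0 reads in all 3 libraries, which allows up to 3 reads in each. Reads were found in 4 of the 9 libraries, and no difference between treatments was detectable at this depth. Its deposited log2 values do not follow the reads across libraries, since 1 read was worth -3.65 in Dppa2 siRNA library C and 3 reads were worth -4.35 in control library B, and no fold change is given.

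Hand1 had log2 values of -1.09, -0.26, and -0.84 in control libraries A, B, and C, -0.55, -0.79, and -1.13 with Dppa2 siRNA, and -0.66, -0.54, and -0.02 with Dppa4 siRNA. The highest value was in Dppa4 siRNA library C and the lowest in Dppa2 siRNA library C, and the 3 groups overlapped. Hand1 rested on as few as 8 reads in a library, for which counting alone gives an exact 95% interval of 3.45 to 15.8. The differences from limma were -0.09 (interval -0.79 to 0.60, adjusted p = 0.965) with Dppa2 siRNA and 0.32 (interval -0.37 to 1.02, adjusted p = 0.679) with Dppa4 siRNA. The latter was 0.14 without control siRNA replicate A, 0.56 without control siRNA replicate B, and 0.13 without Dppa4 siRNA replicate C.

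Among the keratins, Krt8 had log2 values of 3.53, 3.94, and 4.22 in control libraries A, B, and C. With Dppa2 siRNA they were 4.40, 4.05, and 4.37, and with Dppa4 siRNA 4.26, 3.99, and 3.86. Control library A was the lowest of all. The Dppa2 siRNA libraries A and C and Dppa4 siRNA library A were above every control library, and the others lay within the control range. The difference of 0.38 with Dppa2 siRNA (SE 0.19, interval -0.05 to 0.81, adjusted p = 0.408 by limma) had the lowest unadjusted p of the members in the comparisons with control. On the linear scale its interval runs from 0.963 to 1.75 times control. It was 0.19 without control siRNA replicate A and 0.54 without control siRNA replicate C. With Dppa4 siRNA the difference was 0.14 (interval -0.29 to 0.57, adjusted p = 0.789).

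Krt18, the filament partner of Krt8, had log2 values of 3.22, 3.76, and 4.49 in control libraries A, B, and C. They were 4.45, 3.59, and 4.23 with Dppa2 siRNA and 3.81, 3.50, and 3.65 with Dppa4 siRNA. Within the control group alone Krt18 ranged over 1.27 on the log2 scale, and all knockdown libraries fell inside that range. The differences were 0.26 (interval -0.45 to 0.98, adjusted p = 0.839 by limma) with Dppa2 siRNA and -0.17 (interval -0.89 to 0.55, adjusted p = 0.871) with Dppa4 siRNA. Each library of Krt8 and Krt18 rested on over 300 reads, so counting error was small beside this spread.

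Krt7 was far lower than Krt8 and Krt18, with 21 to 57 reads per library. Its log2 values were -0.12, -0.02, and 1.18 in control libraries A, B, and C, 0.44, 0.25, and 0.24 with Dppa2 siRNA, and 0.33, -0.26, and -0.07 with Dppa4 siRNA. Control library C stood above the other 8 libraries, which lay between -0.26 and 0.44. limma gave differences of -0.03 (interval -0.81 to 0.74, adjusted p = 0.990) and -0.35 (interval -1.12 to 0.43, adjusted p = 0.692). Without control siRNA replicate C they were 0.39 and 0.07.

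**Figure D1:**
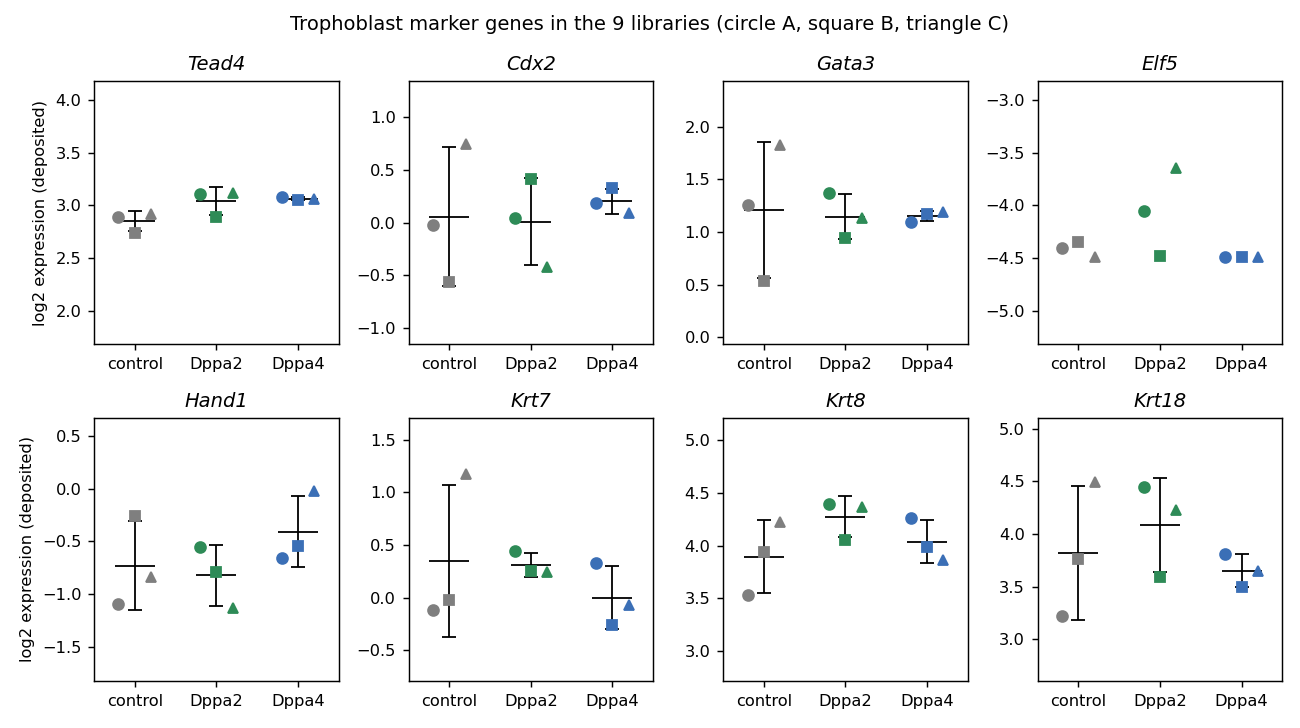
Deposited log2 expression (y axis) of the 8 genes in each library, by siRNA treatment (x axis). Circles, squares, and triangles are libraries A, B, and C, the long bar is the group mean and the whiskers are 1 SD (n = 3), not drawn for Elf5 with its 0 to 3 reads. Every panel spans the same height in log2 units, and the control libraries of Cdx2, Gata3, Krt7, and Krt18 are spread more widely than those with Dppa4 siRNA.

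Of the 7 tested members, 0 passed the threshold of limma with Dppa2 siRNA, where 3.44% of the tested genes did, and 0 with Dppa4 siRNA, where again 3.44% did. At an unadjusted p below 0.05 the count of members was also 0 in both, against 15.7% and 18.0% of tested genes. The intensity difference filter, which sets a gene against genes of similar expression, was below 0.05 for 0 members in either knockdown, against 5.0% and 4.88% of tested genes. Both it and limma were passed by 0 members, against 1.97% and 2.04%. The members were higher than control in 3 of 7 cases with Dppa2 siRNA (median log2 difference -0.03) and in 4 of 7 with Dppa4 siRNA (median 0.14). The median over all tested genes was 0.021 and 0.034. Both comparisons share the control libraries, so the members' values in one are not independent of those in the other.

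The knockdowns were also compared with each other. Since the study found less Dppa2 protein with Dppa4 siRNA too, this comparison does not set loss of Dppa2 protein apart. The differences do not use the control values, but their intervals and p-values do, because limma took the spread from all 9 libraries. Again 0 of 7 members passed limma's threshold, against 0.0205% of tested genes, and 0 had an unadjusted p below 0.05, against 6.76%. The groups of all 7 overlapped, against 17.6% of tested genes whose groups did not. The members with the widest differences were Krt18, lower with Dppa4 than with Dppa2 siRNA by -0.43 (interval -1.15 to 0.28, adjusted p = 0.867), and Hand1, with a difference of 0.42 (interval -0.28 to 1.11, adjusted p = 0.867). Krt18 was the 1 member below 0.05 in the intensity difference filter, which does not use the spread between replicates, against 4.92% of tested genes. Krt8 differed by -0.23 (interval -0.66 to 0.20, adjusted p = 0.898), and Tead4, with the narrowest interval, by 0.02 (interval -0.23 to 0.28, adjusted p = 0.998).

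**Figure D2:**
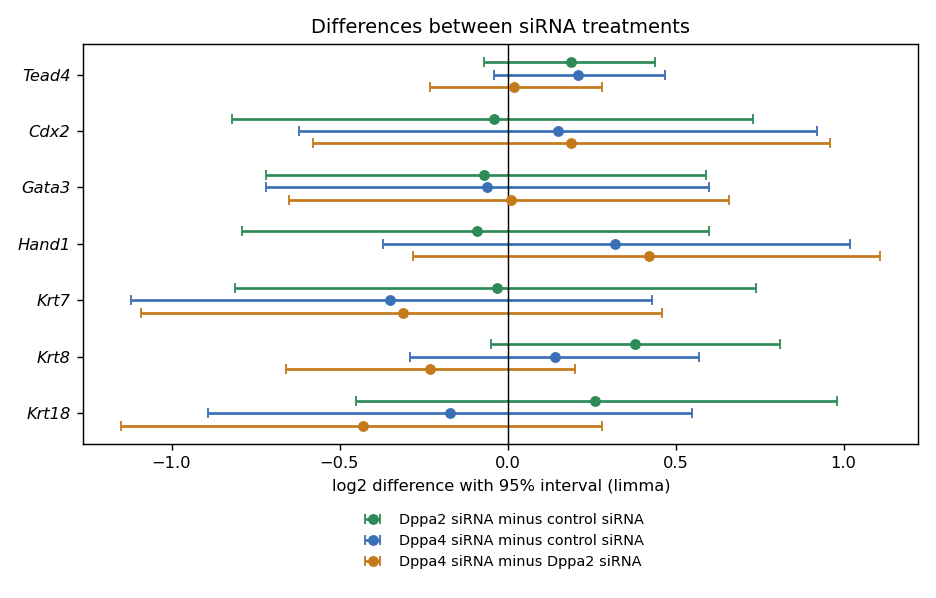
Log2 difference (x axis) of each tested member for the 3 comparisons, with the 95% interval from limma. All 21 intervals include 0, and those of Tead4 are the narrowest.

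The order of the replicates was also compared. In the control group library C was the highest for 6 of the 7 tested members (all but Hand1) and the lowest for 0, and library A was the highest for 0 and the lowest for 4. Among all tested genes control library C was the highest for 43.2% and the lowest for 39.4%, and control library A the highest for 35.9% and the lowest for 42.6%. With Dppa2 siRNA library A was the highest for 5 members and library B the lowest for 4, against 37.8% and 46.3% of tested genes. The SD of the control group exceeded that of the Dppa4 siRNA group for 7 of 7 members, against 83.0% of tested genes. The median SD of the members was 0.64 in control, 0.21 with Dppa2 siRNA, and 0.15 with Dppa4 siRNA. For all tested genes it was 0.29, 0.21, and 0.13.

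A single axis, the first principal component of the tested genes after each gene was centred within its treatment, held 58.3% of the variance between replicates. Control libraries A and C lay at its ends (scores -0.52 and 0.59), and the Dppa2 siRNA libraries A, B, and C had scores of 0.29, -0.45, and 0.17. The Dppa4 siRNA libraries lay closer to the middle, from -0.18 to 0.17. Of the within-treatment variance of Krt18, 94.2% lay along this axis, of Krt8 90.3%, and of Krt7 61.7%, against a median of 65.8% and quartiles of 26.4% and 88.6% for tested genes. For Tead4 it was 33.4%, for Gata3 30.1%, for Cdx2 5.96%, and for Hand1 0.0422%. Thus Krt8 and Krt18 were above the upper quartile, and Cdx2 and Hand1 below the lower.

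**Figure D3:**
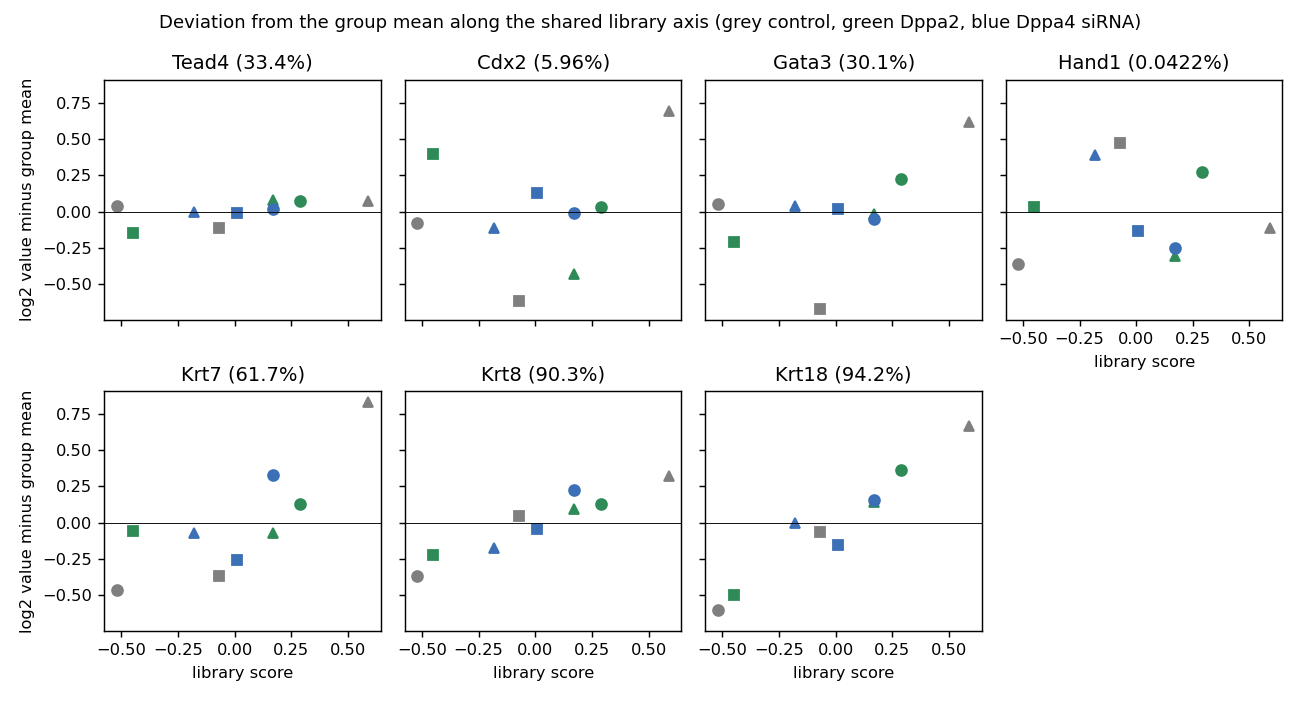
Log2 value minus the group mean (y axis) against the score of each library on the shared axis (x axis, no unit), for the 7 tested members, with the percentage of within-treatment variance along the axis in each title. Circles, squares, and triangles are libraries A, B, and C. Krt8 (90.3%) and Krt18 (94.2%) rise steadily with the score, and Hand1 (0.0422%) does not.

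Transcript composition moved with the axis. Genes in the top quartile of GC content had a median slope along it of 0.29 and those in the bottom quartile of -0.34, in log2 units per unit of score. Those in the bottom quartile of length had a median slope of 0.54 and those in the top quartile of -0.39. The longest annotated transcript of Krt18 has 1437 bases and a GC content of 56.4%, and that of Krt8 has 1958 bases and 57.1%, against medians of 3239 bases and 50.3%. The slopes of Krt18 and Krt8 were 1.09 and 0.60. Members of similar or higher GC content had lower slopes. Hand1 (1904 bases, 57%) had -0.02, Cdx2 (2261 bases, 57.5%) 0.27, and Tead4 (3076 bases, 58.1%) 0.13. The slope was 0.88 for Krt7 (4094 bases, 52.3%) and 0.53 for Gata3 (3215 bases, 49.7%). Cdx2, Gata3, Hand1, and Krt7 rested on few reads, and whether the slopes of the members follow GC content was not tested. The part of composition in the spread of Krt8 and Krt18 was not tested. After GC content and transcript length were removed from each library, an alternative chosen after the data were seen, the difference of Krt8 with Dppa2 siRNA was 0.31 (adjusted p = 0.082 by limma), and still 0 members passed.

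Other genes of the pathway were read from lists chosen by function, and the list median is given beside the medians of 0.021 and 0.034 for all tested genes. Of 19 Hippo pathway genes and Tead partners, all tested, 0 passed in either knockdown, against 3.44% of all tested genes in each (medians -0.08 and -0.11). Its most highly expressed gene, Nf2, an upstream activator of the pathway, differed by -0.07 and 0.09 (adjusted p = 0.935 and 0.838). Of 18 genes of differentiated trophoblast 17 were in the table and 6 were tested, of which 0 passed, against the same 3.44% (medians -0.03 and 0.25). Peg10, an imprinted placental gene that ESCs also express, was the highest of them and differed by 0.12 and 0.24 (adjusted p = 0.936 and 0.733).

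Of 16 further regulators and receptors of trophoblast stem cells, all tested, 3 passed with Dppa2 siRNA (1 higher and 2 lower) and 3 with Dppa4 siRNA (0 higher and 3 lower). The list medians were -0.22 and -0.14. Of all tested genes 1.16% were called higher and 2.27% lower with Dppa2 siRNA, and 1.1% and 2.34% with Dppa4 siRNA. Gata2, a trophoblast factor related to Gata3, fell in both. Its log2 values were 0.84, 0.64, and 0.97 in control, -0.17, -0.05, and -0.31 with Dppa2 siRNA, and 0.11, 0.05, and -0.19 with Dppa4 siRNA, so that all 6 knockdown libraries were below all control libraries. Gata2 fell by 0.99 with Dppa2 siRNA (SE 0.19, limma's adjusted p = 0.0231) and by 0.83 with Dppa4 siRNA (SE 0.19, adjusted p = 0.0474). These calls held in 10 and 6 of 19 alternatives. The call with Dppa2 siRNA was lost without any of the control libraries, Dppa2 siRNA library A or C, or Dppa4 siRNA library B, and that with Dppa4 siRNA without any of the 9 libraries, with adjusted p up to 0.104 and 0.164. With 1 added to the values before log2, the differences of Gata2 were -0.55 and -0.47. The differences of Gata3 itself were -0.07 and -0.06, and the contrast between these genes was not tested.

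Id2, an inhibitor of helix-loop-helix factors, fell by 0.91 on the log2 scale with Dppa2 siRNA (limma's adjusted p = 0.012) and differed by -0.64 with Dppa4 siRNA (adjusted p = 0.0564). Cdh3, the adhesion molecule P-cadherin, fell by 0.79 with Dppa4 siRNA (adjusted p = 0.00655), in all 19 alternatives, and differed by -0.33 with Dppa2 siRNA (adjusted p = 0.181). Ddah1 fell by 0.56 with Dppa4 siRNA (adjusted p = 0.0259), with a difference of -0.47 with Dppa2 siRNA (adjusted p = 0.0543). Arid3a, a DNA-binding factor that promotes trophoblast genes, was the exception in direction. It rose by 0.54 with Dppa2 siRNA (adjusted p = 0.0184) and differed by 0.12 with Dppa4 siRNA (adjusted p = 0.598). The Id2 and Arid3a calls with Dppa2 siRNA held in 13 and 12 of 19 alternatives, and were lost without control library B or Dppa2 siRNA library A or C, that of Id2 also without control library A and that of Arid3a also without Dppa4 siRNA library B (adjusted p up to 0.067 and 0.102). The Ddah1 call held in 11 of 19, and was lost without control library A or C, Dppa2 siRNA library C, or any Dppa4 siRNA library (adjusted p up to 0.129).

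Of 23 further keratins and epithelial genes 20 were tested, of which 2 passed with Dppa2 siRNA, both lower, and 2 with Dppa4 siRNA, 1 in each direction (medians 0.01 and -0.03). Among all tested genes 3.44% passed with Dppa2 siRNA, 2.27% being called lower. With Dppa4 siRNA 3.44% passed, 1.1% called higher and 2.34% lower. Krt14, a keratin of basal epithelia, had lower values in both. It exceeded the filter of log2 -2 only in the control libraries, where it is high. With any of these left out it was not tested. Its calls held in 9 and 13 of the 15 alternatives in which it was tested. It had 11 to 36 reads in the control libraries, 1 or 2 in those with Dppa2 siRNA, and 0 or 1 in those with Dppa4 siRNA (limma's adjusted p = 0.0272 and 0.0107). The Dppa2 siRNA call was lost without Dppa2 siRNA library A or B or Dppa4 siRNA library B, and the Dppa4 siRNA call without Dppa4 siRNA library A or B (adjusted p up to 0.11 and 0.053). Krt20, an intestinal keratin, rose with Dppa4 siRNA by 2.10 (adjusted p = 0.0419), with 6 to 23 reads against 3 to 9 in control libraries, and differed by 1.82 with Dppa2 siRNA (adjusted p = 0.0714). Krt20 exceeded the filter only in the knockdown libraries, where it is high. Because Krt14 and Krt20 each entered the test only through the libraries where they are high, no change is read from their calls. The Krt20 call held in 4 of the 18 alternatives in which it was tested, and was lost without any of the 9 libraries (adjusted p up to 0.143). With 1 added before log2 the difference of Krt20 was 0.39, and those of Krt14 were -0.59 and -0.63. Vim, the intermediate filament protein of mesenchymal cells, fell by 0.33 with Dppa2 siRNA (adjusted p = 0.0429). This call held in 7 of 19 alternatives and was likewise lost without any of the 9 libraries (adjusted p up to 0.168). Fitted on the compared groups alone, the calls of Gata2, Id2, Arid3a, Ddah1, Krt20, and Vim were lost, as was that of Krt14 with Dppa2 siRNA. The intensity difference filter removed those of Gata2, Arid3a, and Krt20, and that of Krt14 with Dppa2 siRNA. With the replicate block the Dppa2 siRNA calls of Gata2, Id2, Arid3a, and Vim were lost. Krt7, Krt8, and Krt18 did not pass in either knockdown. In bulk RNA, fewer cells that express such a gene and less RNA per cell cannot be told apart.

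**Figure D4:**
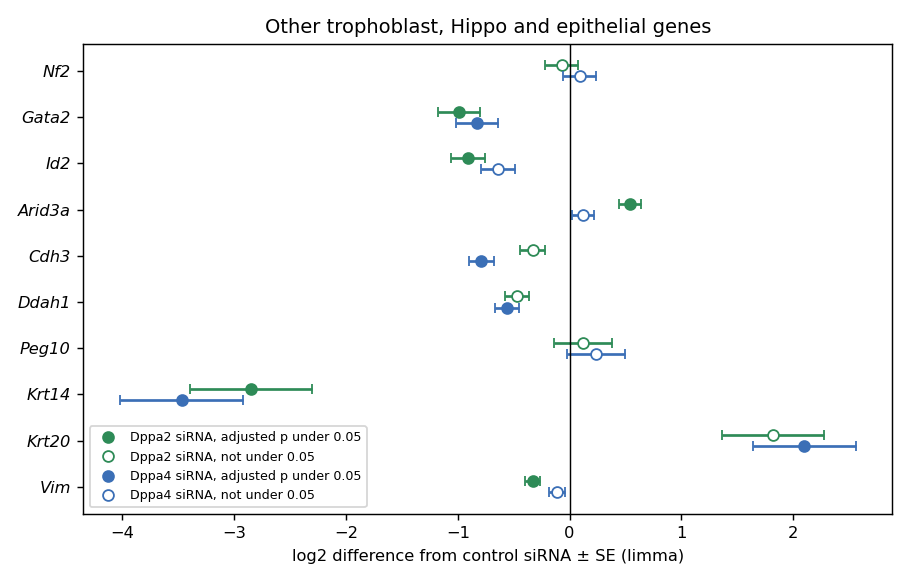
Log2 difference from control siRNA (x axis, with SE by limma) of the genes named from the Hippo, trophoblast, and epithelial lists. Filled points have an adjusted p below 0.05, and Krt14, at -2.85 and -3.47, rests on 0 to 2 reads per knockdown library and lies at -0.59 and -0.63 with 1 added before log2.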

How the data were processed

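Normalized log2 expression of 25965 genes in 9 RNA-seq libraries was read from the deposited table. The authors trimmed reads with Trim Galore (version 0.4.5 in the submitters' processing notes), mapped them to GRCm38 with HISAT2 2.0.5, and quantitated mRNA probes strand-specifically in SeqMonk. Cumulative distributions were then made equal between libraries, and the authors deposited the result as log2 values. Total counts are not given in the sources used here. Low read numbers, up to 300, were taken as the rank of each distinct value within its library, and 100 reads corresponded to log2 values of 0.83 to 2.20, a lower value meaning a deeper library. Matching the distributions stretches values that rest on few reads.

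The study's differential test needs counts, so limma 3.58.1 in R 4.3.3 took its place. It was fitted to all 9 libraries with treatment as the only term, an intensity trend (3.04 prior degrees of freedom), and Benjamini-Hochberg adjustment over 14601 genes, those exceeding -2 on the log2 scale in 3 or more libraries, at a threshold of 0.05. The SeqMonk intensity difference filter was rebuilt on the 1% of genes nearest in mean expression. The fit was tested on simulated data. Gene identifiers, exons, and transcript sequences were from GENCODE M21 (GRCm38), and 50-base stretches, 1 every 5 bases, were looked up in all annotated transcripts. GC content was found for 89.8% of tested genes.

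The text names the 8 members, Dppa2 and Dppa4, and from each list every gene called in either knockdown or, where there was none, the most highly expressed gene. The members and lists were chosen with earlier results of these data known. Python 3.11.15 with numpy 2.4.6, pandas 2.3.3, and matplotlib 3.10.9 made the tables and figures. Alternatives were other filters, scalings, and fits, a replicate block, and leaving out each library.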

Additional observations from a re-analysis of the deposited data

How the results depend on the processing

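The count of members past the threshold was 0 in all 3 comparisons under each of the 19 alternatives, and the lowest adjusted p of any member was 0.082. Of 396 values of the members under these alternatives 21 changed sign. Among them, without control siRNA replicate C, Krt7 went from -0.35 to 0.07 with Dppa4 siRNA and from -0.03 to 0.39 with Dppa2 siRNA. The limits are the spread of the control libraries and, for Cdx2, Gata3, Hand1, and Krt7, low reads.

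With a library left out in turn, differences from control with Dppa2 siRNA ranged from -0.35 to 0.30 for Cdx2, -0.40 to 0.24 for Gata3, -0.28 to 0.14 for Hand1, -0.27 to 0.39 for Krt7, -0.04 to 0.60 for Krt18, -0.25 to 0.02 for Nf2, and -0.11 to 0.35 for Peg10. With Dppa4 siRNA they ranged from -0.16 to 0.49 for Cdx2, -0.39 to 0.25 for Gata3, -0.58 to 0.07 for Krt7, -0.04 to 0.30 for Krt8, -0.47 to 0.17 for Krt18, -0.14 to 0.02 for Dppa2, and -0.09 to 0.19 for Nf2. Krt8 with Dppa2 siRNA ranged from 0.19 to 0.54 and Hand1 with Dppa4 siRNA from 0.13 to 0.56. Between the knockdowns they ranged from -0.02 to 0.39 for Cdx2, -0.10 to 0.12 for Gata3, and -0.05 to 0.06 for Tead4. With GC content and length removed, Tead4 with Dppa4 siRNA was 0.10, Dppa2 with Dppa4 siRNA became 0.02, and Gata3 and Tead4 between the knockdowns both became -0.02. The cause was not tested.

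The background counts of called genes moved more. Against 502 genes with either siRNA and 3 between the knockdowns, libraries left out in turn gave 120 to 413 with Dppa2 siRNA, 149 to 496 with Dppa4 siRNA, and 1 to 3 between them. Between the knockdowns 1 gene was called without Dppa4 siRNA replicate B or C. The lowest counts came without control siRNA replicate B for Dppa2 siRNA, and without control siRNA replicates A and B (149 each) for Dppa4 siRNA. With the groups compared alone the counts were 230 and 294, and with the intensity difference filter 287 and 298. The replicate block gave 238, 212, and 1, with 0 members called, and libraries of the same letter deviated with correlations from -0.585 to 0.367 between treatments, so no pairing was assumed. With GC content and length removed they were 806 and 807. With no filter Dppa2 siRNA called 9140 genes, of which 7462 had no reads in any library and differed only in the value given to 0 reads, and 5 were called between the knockdowns.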

Other observations

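Markers of the other lineages were read beside the trophoblast genes. Of 12 pluripotency factors 0 passed limma's threshold in either knockdown, against 3.44% of tested genes in each. Between the knockdowns 0 of the markers passed, against 0.0205% of tested genes. Of 15 primitive endoderm markers, all tested, 1 rose with Dppa2 siRNA and 3 with Dppa4 siRNA, and 0 fell, with 1.16% and 1.1% of tested genes called higher and 2.27% and 2.34% lower, and list medians of 0.17 and 0.32. Hnf4a, a nuclear receptor of visceral endoderm, had log2 values of 0.09, 0.98, and 0.71 in control, 2.02, 2.06, and 1.70 with Dppa2 siRNA, and 2.22, 2.10, and 1.98 with Dppa4 siRNA. It rose by 1.33 (SE 0.23, adjusted p = 0.0142) and 1.51 (SE 0.23, adjusted p = 0.00859), in 16 and 19 of 19 alternatives, the first call being lost without Dppa2 siRNA library A (adjusted p = 0.0672) and in the fit of the compared groups alone (adjusted p = 0.0778). Gata6 and Sox17, transcription factors of primitive endoderm, rose by 1.44 (adjusted p = 0.0132) and 1.20 (adjusted p = 0.0348) with Dppa4 siRNA. These calls held in 16 and 10 of 19 alternatives. Both were lost without Dppa4 siRNA library A or B, and that of Sox17 also without Dppa4 siRNA library C or control library A or C (adjusted p up to 0.076 and 0.143). With 1 added before log2 the differences were 0.95 and 0.60, and the intensity difference filter removed both calls. With Dppa2 siRNA Gata6 and Sox17 differed by 0.75 (adjusted p = 0.159) and 0.74 (adjusted p = 0.176). The summed level of the list, which its most abundant genes set, was 8.24 to 8.39 in control, and with Dppa4 siRNA 8.18 to 8.28, and with Dppa2 siRNA 8.17 to 8.22, on the log2 scale.

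Of 15 streak and mesoderm markers 13 were tested, beside the 3.44% of all tested genes that passed in each knockdown. Bmp4, a signal that also drives trophoblast genes in culture, was the 1 that passed. It rose by 0.85 with Dppa4 siRNA (SE 0.14, adjusted p = 0.0128), a call lost without Dppa4 siRNA library A or B (adjusted p up to 0.0797), and differed by 0.33 with Dppa2 siRNA (adjusted p = 0.301). Of 10 epiblast and neural markers 9 were tested, of which 2 passed with Dppa2 siRNA and 1 with Dppa4 siRNA, all lower. Among all tested genes 2.27% and 2.34% were called lower. Sox3, a neural and epiblast factor, fell by 1.36 (adjusted p = 0.00599) and 1.13 (adjusted p = 0.0149), and Tubb3, a neuronal tubulin, fell by 0.54 with Dppa2 siRNA (adjusted p = 0.0369) and differed by -0.30 with Dppa4 siRNA (adjusted p = 0.193). The Sox3 call with Dppa4 siRNA held in 16 of 19 alternatives. Among others it was lost without Dppa4 siRNA library A or B (adjusted p up to 0.0828). The Tubb3 call was lost without any library but control C or Dppa4 siRNA C (adjusted p up to 0.145). The Tubb3 call held in 8 of 19 alternatives. It was also lost with no intensity trend, on the compared groups alone, with the replicate block, and with GC content and length removed.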
